A study of Mus musculus with 12 samples.

Results

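The 10 genes followed here mark or build the contractile cells of the vessel wall, and were measured in the dorsal meninges of young and aged mice, 1.5 months after a mild traumatic brain injury (TBI) or a Sham procedure. The genes were taken by name and were Acta2, Myh11, Tagln and Cnn1 of the smooth muscle contractile apparatus, and Pdgfrb, Rgs5, Cspg4, Notch3, Kcne4 and Abcc9, which are receptors, channels and signalling genes of pericytes and smooth muscle cells. They are 10 of the 55385 genes in the count table, and all 10 were among the 18238 genes with enough counts to be tested.

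Arteries and veins of the meninges are wrapped by smooth muscle cells, which contract when calcium activates myosin light chain kinase and myosin pulls on smooth muscle actin. Capillaries are covered by pericytes, which endothelial cells recruit by releasing platelet-derived growth factor B (Pdgfb) onto the receptor PDGFR-beta and which share Notch3 signalling with smooth muscle. Both cell types set vessel calibre and support the barrier of the vessel wall.

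The mice were male, of genotype C57BL/6 in the labels and, where the methods give the substrain of the young mice, C57BL/6J. Young ones, listed as 10 weeks old, gave the groups Young Sham and Young TBI. Aged ones, listed as 20 to 24 months old, gave Aged Sham and Aged TBI. Each of the 4 groups had 3 RNA-seq libraries. In the paper, 10 weeks and 20 months are the ages at the procedure, 1.5 months before the tissue was taken. TBI was a single closed-skull impact over the right inferior temporal lobe, and Sham mice had the same anaesthesia and handling of the device without the impact. The tissue was scraped from the dorsal skullcap after perfusion, so it did not include the place of impact, and each library pooled the meninges of 2 to 3 mice. Young mice came from a commercial breeder and aged mice from an ageing colony, so age and origin cannot be told apart. Whole tissue was sequenced, and in such bulk samples fewer cells of a type and less RNA per cell cannot be told apart.

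The libraries held 8092374 to 16087717 counts. Values below are CPM, read counts scaled to a common library size after TMM normalisation, given as mean ± SD over 3 libraries, and a gene was called where its Benjamini-Hochberg adjusted p over all 18238 genes was under 0.1. The library Aged Sham 3 stood apart in bone genes (4113 CPM summed, against 974.6 to 1538 in the other 11) and pituitary genes (1042 CPM, against 3.87 to 15.5). Young TBI 3 and Aged TBI 2 were high in skeletal muscle genes (575 and 2230 CPM, against 44.2 to 103 in the other 10). All 10 genes had counts in every library, and their summed level was 2263 to 2521 CPM in the 6 young libraries and 1915 to 2237 CPM in the 6 aged libraries, without overlap.

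Per kilobase of exon, which allows genes to be ranked, Acta2, the smooth muscle actin, was highest in Young Sham at 279.9 ± 5.61 CPM per kb. Rgs5, an inhibitor of G protein signalling that is a classical pericyte marker, and Pdgfrb followed at 107 ± 4.36 and 97.4 ± 7.28 CPM per kb, and did not differ beyond their spread. Myh11, the smooth muscle myosin heavy chain, at 46.3 ± 4.46 and Kcne4, an accessory subunit of potassium channels, at 43.4 ± 12.5 CPM per kb also did not separate. Notch3 lay at 27.9 ± 2.09, Cnn1 (calponin, which binds actin) at 8.77 ± 1.09, Abcc9 (the SUR2 subunit of the ATP-sensitive potassium channel) at 6.19 ± 0.180 and Cspg4 (the NG2 proteoglycan) at 5.55 ± 0.227 CPM per kb. Tagln (transgelin, an actin-binding protein of smooth muscle) came last, at 1.15 ± 0.0474 CPM per kb. The order of the lower genes was not fixed. Kcne4 lay below Notch3 in Young TBI at 18.5 CPM per kb, and Cspg4 lay above Abcc9 in the other 3 groups.

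**Figure D1:**
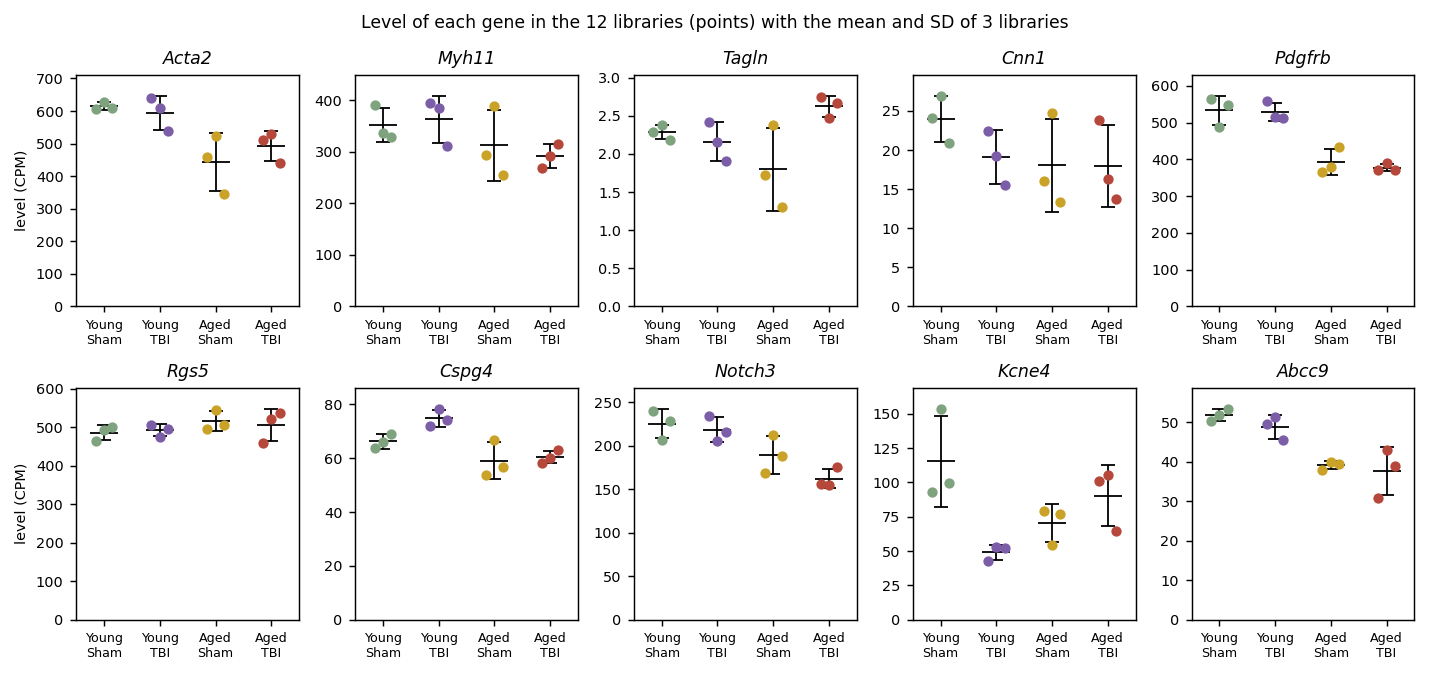
Levels of the 10 genes in CPM (vertical axis) in the 12 libraries, with a point per library and the mean ± SD of each group of 3. The 6 aged libraries lie below the 6 young ones for Pdgfrb, Abcc9 and Acta2, and the 3 Young TBI libraries lie lowest for Kcne4.

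The gene model of Tagln overlaps other genes more than that of any other member. It lies on mouse chromosome 9, from 45929619 to 45936058 on the minus strand (mm10), and 67.9% of its 1988 exonic bases lie under exons of genes on the opposite strand. The antisense gene Gm48529 covers 1241 of them and Pcsk7, a protease gene, covers 108. The gene had 15 to 45 counts in a library. Whether the counting used strand is not given in the sources used here, and the part of this overlap in the low level was not tested. Taken over the 639 bases free of other genes alone, the level in Young Sham would be 3.58 CPM per kb. Notch3 shares 6.03% of its exonic bases with the antisense gene Gm17276 and Abcc9 shares 1.89%, and the other 7 genes share none.

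**Figure D2:**
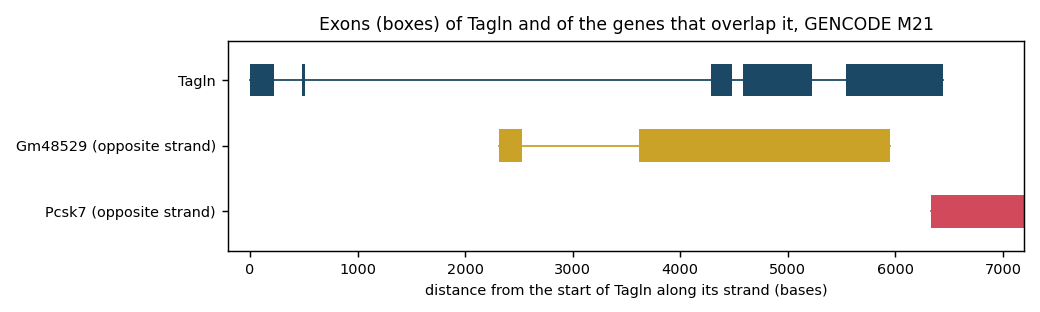
Exons of Tagln and of the opposite-strand genes over it, with distance along the gene in bases on the horizontal axis. Exons of Gm48529 cover 1241 of the 1988 exonic bases of Tagln and those of Pcsk7 cover 108.

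Smooth muscle genes are known to be driven by serum response factor (Srf), which binds the CArG box, CC followed by 6 bases A or T and then GG, and Notch targets by RBPJ, which binds TGGGAA. These motifs were read on both strands in promoter windows of RefSeq for 7 of the 10 genes. A window ran from 250 bases before to 50 after the start (GRCm38.p6, the build of mm10). Myh11, Tagln and Pdgfrb were not searched. The strict CArG box was in none of the 7, and in 1.63% of 32851 windows. Acta2, the most abundant of the genes, alone of the 7 held a CArG-like box with a single G or C in its centre (8.5% of all windows), and did so at 2 places, 84 and 34 bases before the start. They are shown with the box in capitals, on the minus strand, because they are the elements through which Srf is known to act on this gene.
Acta2 chr19:34255440-34255465: gctgaggtCCCTATATGGttgtgtta
Acta2 chr19:34255390-34255415: tctttgctCCTTGTTTGGgaagcgag
TGGGAA was in Acta2, overlapping the second of these boxes, and in Abcc9, against 25.56% of all windows. The bases upstream of the annotated starts of Kcne4 (plus strand) and Abcc9 (minus strand, TGGGAA in capitals) are printed because Kcne4 gave the largest change between Sham and TBI and Abcc9 was lower with age in both Sham and TBI mice. The window of Kcne4 held none of the motifs searched. A match is a description and not a binding site.
Kcne4 chr1:78816661-78816757: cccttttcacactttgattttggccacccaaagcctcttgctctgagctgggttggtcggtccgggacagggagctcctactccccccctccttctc
Abcc9 chr6:142702316-142702524: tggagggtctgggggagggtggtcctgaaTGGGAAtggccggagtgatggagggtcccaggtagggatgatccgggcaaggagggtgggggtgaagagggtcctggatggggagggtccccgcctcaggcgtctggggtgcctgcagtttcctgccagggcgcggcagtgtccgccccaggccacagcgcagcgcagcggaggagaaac

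Without injury, aged meninges held less RNA of 4 of the 10 genes: Pdgfrb, Acta2, Kcne4 and Abcc9 were lower in Aged Sham than in Young Sham, and none was higher. Called genes made up 15.6% of all genes tested in this comparison, 7.71% lower and 7.89% higher. The log2 change was negative for 9 of the 10 genes, with a median of -0.37 over the 10 and 0.01 over all genes. The 4 genes whose libraries did not overlap between the groups were all lower with age, against 28.4% of all genes without overlap in either direction.

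Pdgfrb, the receptor by which pericytes answer Pdgfb, lies on chromosome 18. The Young Sham libraries held 564, 489 and 548 CPM of it, and those of Aged Sham 367, 380 and 433 CPM. Every aged library lay below every young one. The log2 fold change was -0.44 ± 0.07 (SE, adjusted p = 0.00441, edgeR quasi-likelihood test with Benjamini-Hochberg adjustment). Fibroblasts of the meninges also express Pdgfrb, and the summed level of 12 fibroblast marker genes moved the same way: 17927 to 22823 CPM in Young Sham, and in Aged Sham 10594 to 12079 CPM, with 7 of the 12 called lower and 1 higher. What part of the Pdgfrb difference came with fibroblasts was not tested.

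Abcc9, which forms with Kcnj8 the ATP-sensitive potassium channel that relaxes vessel wall cells, lies on chromosome 6 from 142587862 to 142702315 on the minus strand. Its levels were 50.3, 51.8 and 53.4 CPM in Young Sham, and in Aged Sham 38.0, 39.9 and 39.3 CPM, with no overlap and SDs of 1.50 and 0.983 CPM. The change was -0.41 ± 0.10 (SE, adjusted p = 0.0245, edgeR quasi-likelihood test, Benjamini-Hochberg). Kcnj8, the pore of that channel, had 35.4 ± 0.832 CPM in Young Sham and 28.8 ± 5.59 in Aged Sham. It was not called, at -0.30 ± 0.13 (adjusted p = 0.18, edgeR), but passed without Aged Sham 2, at -0.45 (adjusted p = 0.0589).

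Acta2 (chromosome 19, 34241090 to 34255590, minus strand) had 607, 629 and 609 CPM in Young Sham, and in Aged Sham 459, 522 and 347 CPM. The groups did not overlap, but the aged libraries were spread more widely, with SDs of 88.9 and 12.3 CPM. The change was -0.47 ± 0.12 (SE, adjusted p = 0.0341, edgeR). Aged Sham 3, the library set apart by bone and pituitary genes, was the lowest of the aged libraries, and Aged Sham 2 the highest.

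The other contractile genes spread in the same way and were not called with all libraries in the fit. Myh11 (chromosome 16, 14194535 to 14291372, minus strand) had 391, 337 and 328 CPM in Young Sham, and in Aged Sham 294, 389 and 255 CPM, overlapping. Its change was -0.17 (adjusted p = 0.502, edgeR). Cnn1 (chromosome 9, 22099216 to 22109630, plus strand) had 24.1, 26.9 and 20.95 against 16.03, 24.7 and 13.4 CPM, with a change of -0.41 (adjusted p = 0.321, edgeR) that became -0.71 and passed without Aged Sham 2 (adjusted p = 0.0991). Tagln had a change of -0.33 (adjusted p = 0.392, edgeR) on 24 to 35 counts a library in Young Sham and 16 to 35 in Aged Sham. In all 4 contractile genes Aged Sham 3 was the lowest and Aged Sham 2 the highest of the Aged Sham libraries. In Young TBI all 4 were highest in library 1 and lowest in library 3. The 4 genes did not rank the libraries alike in Young Sham or in Aged TBI.

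Notch3 (chromosome 17, 32120820 to 32166852, minus strand), the Notch receptor of vessel wall cells, had 241, 207 and 229 CPM in Young Sham, and in Aged Sham 169, 212 and 188 CPM. It just missed the threshold, at -0.25 (adjusted p = 0.102, edgeR), and a single aged library lay among the young ones. The call was gained without Young Sham 2, without Aged Sham 2 or without Aged TBI 3, and with DESeq2 (adjusted p = 0.0731). Cspg4 (chromosome 9, 56865033 to 56899870, plus strand), the NG2 proteoglycan of pericyte membranes, had a change of -0.16 (adjusted p = 0.206, edgeR), and without Aged Sham 2 one of -0.26 that passed (adjusted p = 0.045). Rgs5 (chromosome 1, 169655501 to 169695813, plus strand) was the exception to the negative direction, with 464, 494 and 501 CPM in Young Sham, and in Aged Sham 495, 545 and 506 CPM and a change of 0.08 (adjusted p = 0.474, edgeR). Vtn, the matrix protein vitronectin and another pericyte marker, had 303 ± 6.12 and 311 ± 22.01 CPM and a change of 0.03 ± 0.07 (adjusted p = 0.825, edgeR). Neither passed the test. Whether their changes differ from that of Pdgfrb was not tested.

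Kcne4 (chromosome 1, 78816758 to 78820028, plus strand) was lower in Aged Sham as well, at 79.3, 54.3 and 76.9 CPM against 92.9, 154 and 99.7 CPM in Young Sham. The groups did not overlap, although Young Sham 2 alone stood far above the rest. The change was -0.72 ± 0.22 (SE, adjusted p = 0.0603, edgeR). Without Young Sham 2 the change was -0.46 and the adjusted p was 0.214, and without Aged Sham 2 they were -0.57 and 0.191. In a fit of only these groups the adjusted p was 0.105. The calls of Pdgfrb, Acta2 and Abcc9 held when any single library was left out.

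Among injured mice the same question, aged against young, gave 4 lower genes and 1 higher one: Pdgfrb, Notch3, Cspg4 and Abcc9 were lower in Aged TBI than in Young TBI, and Kcne4 was higher. Called genes were 20.2% of all genes here, 10.3% lower and 9.92% higher. The median change of the 10 genes was -0.29, against 0.02 over all genes, and 7 of the 10 did not overlap between the groups (5 lower, 2 higher), against 35.1% of all genes. Without Young TBI 3 and Aged TBI 2, the pair high in skeletal muscle genes, 3 of the 10 were called, all lower, while the share of all genes called went from 20.2% to 12.7%. Without Aged Sham 3 as well, 6 were called, all lower (17.6% of all genes). Markers of neighbouring tissues moved too: 5 of 6 choroid plexus genes were lower in Aged TBI (1149 to 2470 CPM summed, against 2579 to 4581 CPM in Young TBI) and 4 of 8 arachnoid genes were higher. In Sham mice 4 of 8 arachnoid genes were higher and 1 lower, 1 of 6 choroid plexus genes was lower, and 3 of 7 bone genes were higher and 4 lower. Their part in the values of the 10 genes was not tested.

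**Figure D3:**
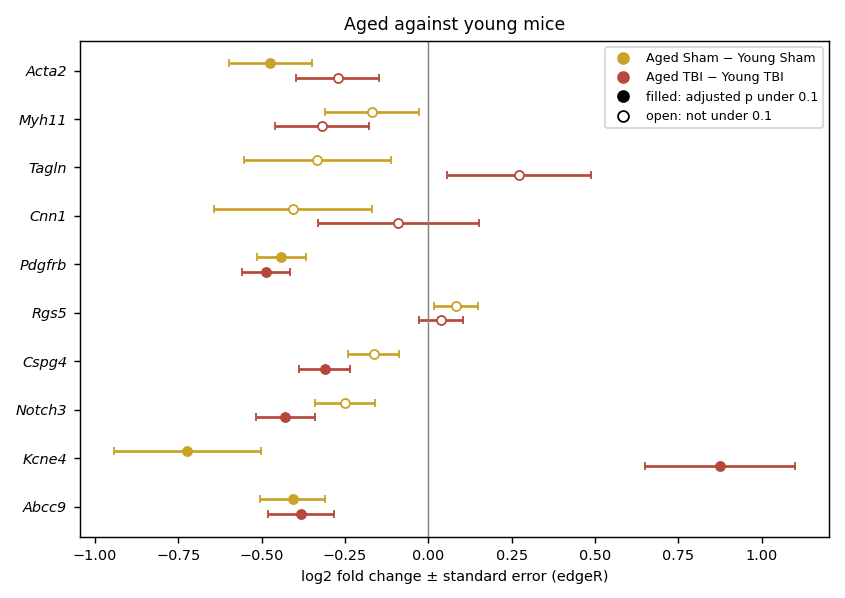
Log2 fold change of aged against young libraries for the 10 genes, with SE bars, in Sham and in TBI mice. Pdgfrb and Abcc9 lie below 0 in both, and Kcne4 lies at -0.72 in Sham and 0.88 in TBI.

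Pdgfrb had 559, 516 and 514 CPM in Young TBI and 372, 390 and 371 CPM in Aged TBI, a gap wider than the spread within either group. The change was -0.49 ± 0.07 (SE, adjusted p = 0.00223, edgeR). Fibroblast genes summed to 20043 to 22713 CPM in Young TBI and 10773 to 12593 CPM in Aged TBI, again with 7 of 12 called lower and 1 higher.

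Notch3 had 234, 206 and 216 CPM in Young TBI and 157, 155 and 175 CPM in Aged TBI, without overlap, and changed by -0.43 ± 0.09 (SE, adjusted p = 0.0102, edgeR). Abcc9 had 49.5, 51.3 and 45.6 CPM in Young TBI against 30.9, 42.9 and 38.9 CPM and changed by -0.38 ± 0.10 (adjusted p = 0.0265, edgeR). Cspg4 had 72.0, 78.3 and 74.3 CPM against 58.2, 60.1 and 62.9 CPM, a change of -0.31 ± 0.08 (adjusted p = 0.0218, edgeR). The groups did not overlap for any of the 3. Cspg4 also marks oligodendrocyte progenitors. Of their defining genes, Olig1 and Olig2 were at no more than 0.678 and 0.381 CPM in any library. Of the 8 progenitor markers 5 could be tested and 1 was called lower. The summed level of the markers was 575.8 to 608 CPM in Young TBI and 336 to 496 CPM in Aged TBI. They did not all move with this sum: 3 of the 5 tested had a negative change, with a median of -0.13. The part of these markers in the Cspg4 difference was not tested. Without the muscle-rich pair Cspg4 lost its call (adjusted p = 0.101).

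Kcne4 ran the other way: 43.0, 52.8 and 51.9 CPM in Young TBI and 101, 105 and 64.6 CPM in Aged TBI, a change of 0.88 ± 0.23 (SE, adjusted p = 0.0259, edgeR). The groups did not overlap. The call was lost without Young TBI 1 (adjusted p = 0.105) and without the muscle-rich pair (adjusted p = 0.132). The contractile genes were not called in injured mice, Acta2 at -0.27 (adjusted p = 0.173), Myh11 at -0.32 (0.159), Cnn1 at -0.09 (0.849) and Tagln at 0.27 (0.447), all by edgeR. Acta2 had 639, 609 and 537 CPM in Young TBI against 510, 528 and 441 CPM in Aged TBI, without overlap. Tagln did not overlap either, and was higher in Aged TBI. Without Aged Sham 3 Acta2 and Myh11 passed too (adjusted p = 0.0389 and 0.0843), as both did in a fit of only these groups (0.0626 and 0.0572), and Myh11 also did without Aged Sham 2 (0.0723) and without a filter on low counts (0.0869). Rgs5 was at 0.04 (adjusted p = 0.745, edgeR).

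Genes of the same pathways, from lists made by role, were called with age in both directions. Of 24 contractile apparatus genes, 6 were lower and 1 higher in Aged Sham, with a median change of -0.14. Those lower included Smtn (smoothelin, 140 ± 7.43 to 107 ± 9.78 CPM, adjusted p = 0.00589, edgeR), Mylk (myosin light chain kinase, -0.44 ± 0.11, 0.0292) and Myl9 (the myosin regulatory light chain, 359 ± 9.16 to 274 ± 46.9 CPM, 0.0303), and Synm, an intermediate filament protein, was higher at 0.37 ± 0.09 (0.0219). In Aged TBI 4 of 24 were lower and 3 higher. Mylk and Smtn were again lower (-0.39 and -0.31, adjusted p = 0.0377 and 0.0129, edgeR), as were Actn1 at -0.38 and Myl6 at -0.19, while Synm, Rock1 and Ppp1r12b were higher. Myl6 lost its call with scaling by library totals alone (adjusted p = 0.137, edgeR). The call of Mylk there was lost without Young TBI 1, without Young TBI 2 (highest adjusted p = 0.115) or without the muscle-rich pair (0.108), and those of Rock1 and Ppp1r12b in 3 and 5 of the 12 refits with 1 library removed. Myl9 was at -0.24 there (adjusted p = 0.137, edgeR), and passed without Aged Sham 2 (0.0804), without Aged Sham 3 (0.0176), in a fit of only these groups (0.0275) and by DESeq2 (0.0974). In Sham mice the calls of Mylk and Myl9 were lost in a fit of only these groups (0.103 and 0.108). Desmin (Des), also of the intermediate filaments, gave -0.02 and 0.51 with adjusted p of 0.986 and 0.473. Aged TBI 2, a library rich in skeletal muscle, had 95.1 CPM of Des. Without it the change in injured mice turned to -0.47 and passed as lower (adjusted p = 0.0886, edgeR). Without both muscle-rich libraries, Aged TBI 2 and Young TBI 3, it was -0.33 and did not pass (adjusted p = 0.222, edgeR).

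**Figure D4:**
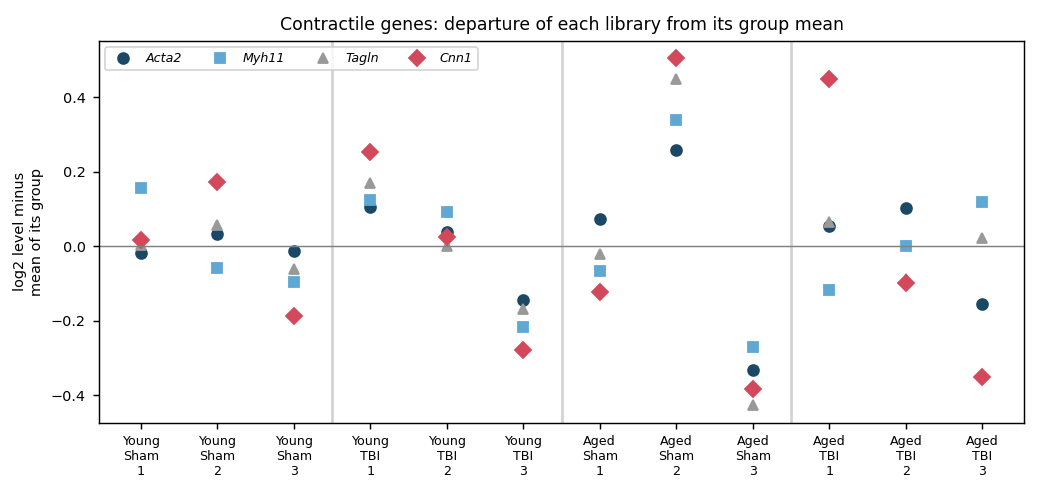
Contractile genes Acta2, Myh11, Tagln and Cnn1 in each of the 12 libraries, as the log2 level minus the mean of its group (vertical axis). All 4 lie highest in library 2 and lowest in library 3 of Aged Sham. In Young TBI all 4 lie highest in library 1 and lowest in library 3. Their order differs between the genes in Young Sham and Aged TBI.

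Srf, the transcription factor of contractile genes, fell from 78.6 ± 2.89 CPM in Young Sham to 51.3 ± 8.61 in Aged Sham (-0.62 ± 0.13, adjusted p = 0.0117, edgeR), the only one of 14 regulators called there. In injured mice it was not called, at -0.25 (adjusted p = 0.21), with Young TBI already at 61.3 ± 7.92 CPM. Its coactivator Myocd was under 1 CPM on average in every group and was not called, at -0.26 ± 0.42 (adjusted p = 0.756) and 0.19 (0.827). In Aged TBI 3 regulators were higher (Tbx18 at 0.56, adjusted p = 0.00869, edgeR, Nr2f2 and Foxf2) and 2 lower (Mrtfa and Foxs1), and apart from Tbx18 each of these calls was lost in at least 2 of the refits that left out a single library.

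The Notch pathway had 5 of 16 genes lower and 1 higher in Aged Sham, and 4 lower and 2 higher in Aged TBI. Heyl, a Notch target of vessel wall cells, had 50.5 ± 3.10 CPM in Young Sham, and in Aged Sham 36.3 ± 2.79 CPM (-0.48 ± 0.12, adjusted p = 0.0284, edgeR). It had 56.1 ± 8.38 CPM in Young TBI and 32.8 ± 4.74 CPM in Aged TBI (-0.78 ± 0.12, adjusted p = 0.00269, edgeR). Nrarp, a feedback inhibitor of Notch, and the endothelial ligand Dll4 were lower in Sham mice (-0.91 ± 0.22 and -0.39, adjusted p = 0.0272 and 0.0313). Of the 2582 exonic bases of Nrarp, 79.4% lie under the antisense gene Gm38287. The part of this overlap in the value of Nrarp was not tested. In Sham mice the calls of Heyl and Dll4 were lost without Young Sham 3, and that of Dll4 also without Aged Sham 2 (highest adjusted p = 0.112 and 0.125). Notch1 and Notch2 were lower in injured mice (-0.42 and -0.19, adjusted p = 0.00921 and 0.0211, edgeR). The call of Notch2 was lost with scaling by library totals alone (adjusted p = 0.142, edgeR). Rbpj, the DNA-binding partner of Notch, was higher in Sham and in injured mice (0.21 and 0.18). Its call in Sham mice was lost in a fit of only these groups (adjusted p = 0.102, edgeR). That in injured mice was lost without Young TBI 1, Aged TBI 3, the muscle-rich pair or a filter on low counts. The coactivator Maml2 was higher in injured mice (0.23, adjusted p = 0.013, edgeR, and 0.105 without the muscle-rich pair). Jag1, the ligand on the neighbouring cell, did not pass at -0.14 and 0.02. The platelet-derived growth factor list held 5 genes, the ligands Pdgfa, Pdgfb, Pdgfc and Pdgfd and the receptor Pdgfra. None of them passed in either comparison with all libraries in the fit. Pdgfb was at 0.13 (adjusted p = 0.499, edgeR) in Sham and -0.28 (0.118) in injured mice. Without Aged Sham 1 Pdgfb passed in both, as higher in Sham mice (0.27, adjusted p = 0.0418) and lower in injured mice (-0.29, 0.0188). In injured mice it also passed without Aged Sham 3 (0.0954), by DESeq2 (0.0924), without a filter (0.0953) and in a fit of only these groups (0.0414). Endothelial genes, the source of Pdgfb, gave 1 of 12 higher and none lower in Sham mice and 1 higher and 2 lower in injured mice, and their summed level overlapped between ages (2597 to 2890 CPM young, 2580 to 3485 CPM aged).

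Of 24 tested genes for vessel tone, 3 were higher and 3 lower in Aged Sham, and 2 higher and 6 lower in Aged TBI. Agtr1a, an angiotensin receptor, had 6.21 ± 0.385 CPM in Young Sham, and in Aged Sham 3.32 ± 0.709 CPM (-0.90 ± 0.17, adjusted p = 0.00928, edgeR), and was lower in injured mice too, at -0.83 ± 0.17 (adjusted p = 0.00972, edgeR). Ednra, the endothelin receptor, was lower in both as well (-0.35 ± 0.08, adjusted p = 0.0206, edgeR, in Sham mice, and -0.32 in injured mice), as was Adra1b, an adrenergic receptor (-0.36 and -0.51). Gucy1b1, a subunit of the nitric oxide receptor that relaxes smooth muscle, was higher in both, at 31.8 ± 1.82 CPM in Young Sham against 44.5 ± 0.909 CPM in Aged Sham (0.48 ± 0.08, adjusted p = 0.00427) and 0.27 in injured mice (0.0443). The call of Gucy1b1 in injured mice and that of Adra1b in Sham mice were lost in 3 and 5 of the refits without a single library. Also called were Pde5a, a phosphodiesterase, higher in Sham mice, and Ryr2, a calcium release channel, higher in injured mice, each lost in at least 3 of the refits without a single library. Of 16 further pericyte genes, 2 were higher and 2 lower in Aged Sham and 1 higher and 2 lower in Aged TBI. Slc6a20a, an amino acid transporter, was higher by 0.94 in both (adjusted p = 0.0227 and 0.0203), and Rgs4 was lower in both (-0.45 and -0.61), its call in Sham mice being lost without any of 5 libraries. Enpep, aminopeptidase A of pericyte membranes, was lower in Sham mice (-0.38, adjusted p = 0.0189, edgeR) and Ndufa4l2 in injured mice (-0.45, adjusted p = 0.0219, edgeR). Pla1a was higher in Sham mice (0.85, adjusted p = 0.0324, edgeR), a call lost without Young Sham 3 (0.134) and in a fit of only these groups (0.105). Its Aged Sham libraries held 5.47, 5.98 and 9.73 CPM, the highest being Aged Sham 3, without which the call held.

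After injury none of the 10 genes passed the threshold at either age by edgeR. In young mice 0 of the 10 were called by edgeR (1 gene of all tested, 0.00548%), and 2 had an unadjusted p under 0.05, against 4.15% of all genes. The groups did not overlap for these 2, Kcne4 and Cspg4, against 11.5% of all genes. In aged mice 0 of the 10 were called by edgeR (1.65% of all genes) and 2, Tagln and Notch3, had an unadjusted p under 0.05, against 14.4% of all genes. Only Tagln did not overlap there, against 17.3%. DESeq2 called 1 of the 10 in young mice, which was Kcne4 (0.0493% of all genes), and none in aged mice (3.49%). The test of the difference of the injury effect between the ages called 0 of the 10 by edgeR (0% of all genes), while 1 of the 10 had an unadjusted p under 0.05 (7.6% of all genes) and DESeq2 called 1 (0.0274% of all genes), in both cases Kcne4.

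**Figure D5:**
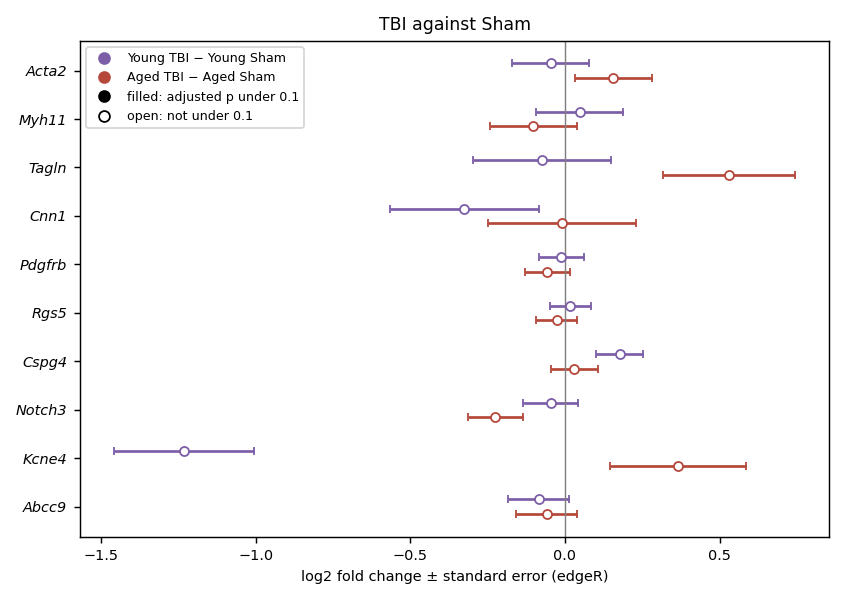
Log2 fold change of TBI against Sham libraries for the 10 genes, with SE bars, in young and in aged mice. All points are open, as none passed the threshold, and Kcne4 lies at -1.23 in young and 0.37 in aged mice.

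Kcne4 gave the largest log2 change of the 10 after injury in young mice. The Young Sham libraries held 92.9, 154 and 99.7 CPM and the Young TBI libraries 43.0, 52.8 and 51.9 CPM. In aged mice the Sham libraries held 79.3, 54.3 and 76.9 CPM and the TBI libraries 101, 105 and 64.6 CPM. Every injured young library lay below every Sham library of either age, whereas in aged mice the groups overlapped. The injury change was -1.23 ± 0.23 in young mice (SE, unadjusted p = 0.000154, adjusted p = 0.467, edgeR) and 0.37 ± 0.22 in aged mice (adjusted p = 0.481, edgeR). DESeq2, the tool of the study, gave an adjusted p of 5.45e-05 for the same libraries in young mice and the edgeR fit without a filter on low counts gave 0.000487, so the call depends on the fit. Aged minus young, the injury effects differed by 1.60 ± 0.32 (SE, unadjusted p = 0.000282, adjusted p = 0.643, edgeR), with an adjusted p of 0.000843 by DESeq2. The injury and age comparisons share their libraries, so the values of Kcne4 in them are not independent.

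Cspg4 had 63.7, 66.0 and 69.1 CPM in Young Sham and 72.0, 78.3 and 74.3 CPM in Young TBI, a change of 0.18 ± 0.08 (unadjusted p = 0.0411, edgeR). In aged mice it had a change of 0.03 and the libraries overlapped. Notch3 had a change of -0.23 ± 0.09 after injury in aged mice (unadjusted p = 0.0269, edgeR), with overlapping libraries, and Tagln one of 0.53 ± 0.21 (unadjusted p = 0.029, edgeR), on 16 to 35 counts in Aged Sham and 35 to 45 in Aged TBI. None of these passed adjustment. The remaining genes changed by -0.33 to 0.05 in young mice.

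None of the lists of contractile, regulator, pericyte, growth factor or tone genes had a member called after injury at either age by edgeR. The Notch list had 2 in aged mice, Maml2, a coactivator, at 0.21 and Notch1 at -0.37 (adjusted p = 0.0955 and 0.0833, edgeR). The call of Maml2 was lost whichever library was left out, and that of Notch1 in 9 of the 12 such refits.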

How the data were processed

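RNA was extracted from scraped dorsal meninges, and libraries were sequenced as paired ends by a commercial provider. The authors aligned reads to mm10 with HISAT2, removed PCR duplicates and reads in uninformative regions, and counted reads per gene with HTSeq, with SAMtools among the tools. Versions, annotation and strand setting are not given in the sources used here. The deposited values are raw read counts per gene in 12 libraries, and no column of another sample was present. Each library was a pool of its own mice. The p-values rest on the spread between pools within groups, which the main fit estimated from all 12 libraries together. Libraries outside a comparison therefore also affect its p-values.

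The count test was edgeR 4.0.16 (R 4.3.3). Genes were filtered by expression within groups (18238 tested, 37147 set aside, 99.81% of counts kept), scaled by TMM (factors 0.9688 to 1.0359), and fitted with a mean per group over all 12 libraries (common dispersion 0.0151). The quasi-likelihood test was applied to 5 comparisons, and p-values were adjusted over all genes by Benjamini-Hochberg at the threshold of 0.1 that the study used with DESeq2. SEs are the log2 fold change divided by the square root of F. Levels are CPM of TMM-scaled library size. DESeq2 1.42.0 was an alternative, as were other scaling, filters, thresholds, group choices, a replicate block, and leaving out each library. The tests were checked on simulated counts. Exon overlaps used GENCODE annotation of GRCm38, the build of mm10, and promoter windows came from RefSeq GRCm38.p6 (Python 3.11.15).

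The named genes were the 10 members, 10 partner genes always named, and up to 3 called genes per direction, list and comparison with a level of at least 1 CPM. Some genes that this rule would name are not reported here. The members and lists were chosen with earlier results of these data known. Counting error limits genes of few counts most, Tagln first.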

Additional observations from a re-analysis of the deposited data

Results flagged for a closer look

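Kcne4 was singled out because the effect of injury on it differed between the ages. Its log2 change between TBI and Sham libraries was higher in aged than in young mice by 1.6 (SE 0.32, unadjusted p = 0.000282 by edgeR). After adjustment over all genes the difference did not pass by edgeR (adjusted p = 0.643) and did by DESeq2 (adjusted p = 0.000843). All 3 Young TBI libraries lay below all 3 Young Sham libraries, while 2 of the 3 Aged TBI libraries lay above all Aged Sham libraries.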

How the results depend on the processing

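With single libraries left out, 4 to 6 of the 10 genes were called for age in Sham mice (6.85% to 19.8% of all genes), 4 to 7 for age in injured mice (11.2% to 24.7%), and 0 for injury and for the difference between ages. The 10 genes had 1 call (Kcne4) for injury in young mice and 1 for the difference under DESeq2, and the same counts, 1 and 1, without a filter on low counts. Leaving out the pair of libraries high in skeletal muscle genes, an alternative chosen after seeing the data, gave 3 calls for age in injured mice (12.7% of all genes), and leaving out Aged Sham 3 too, also chosen after seeing the data, gave 6 (17.6%). Both turned the sign of some changes. Without the pair, Pdgfrb was at 0.009279 and Acta2 at 0.0217 for injury in young mice, Cnn1 at 0.05736 for injury in aged mice, Jag1 at -0.002197 and Des at -0.3252 for age in injured mice, and Abcc9 at -0.1274 for the difference. Without the pair and Aged Sham 3, Pdgfrb was at 0.009364 and Acta2 at 0.02161 (injury, young), Acta2 at -0.04419 (injury, aged), Jag1 at -0.00281 and Des at -0.3255 (age, injured), and Acta2 at -0.0658 and Abcc9 at -0.1245 (difference). Scaling by library totals alone gave Cnn1 6.482e-05 for injury in aged mice and Des 0.02215 for age in Sham mice. The cause of these turns was not tested.

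Leaving out single libraries also turned the sign of some changes, among them Des for age in injured mice, from 0.51 to -0.4723 (adjusted p = 0.0886, edgeR) without Aged TBI 2. For injury in young mice the ranges were -0.06505 to 0.03033 (Pdgfrb), -0.01509 to 0.0421 (Rgs5), -0.1001 to 0.02169 (Acta2), -0.01467 to 0.1467 (Myh11) and -0.09854 to 0.002075 (Notch3). For injury in aged mice they were -0.1193 to 0.01639 (Pdgfrb), -0.07303 to 0.03889 (Rgs5), -0.04776 to 0.1295 (Cspg4), -0.2294 to 0.08715 (Myh11), -0.2724 to 0.2914 (Cnn1) and -0.1677 to 0.06611 (Abcc9). For age in Sham mice they were -0.6326 to 0.03578 (Myocd), -0.1142 to 0.07004 (Des) and -0.01425 to 0.0895 (Vtn). For age in injured mice they were -0.006739 to 0.1052 (Rgs5), -0.3526 to 0.06813 (Cnn1), -0.05968 to 0.0823 (Jag1), -0.09139 to 0.518 (Myocd) and -0.4723 to 0.8604 (Des). For the difference they were -0.1107 to 0.02776 (Pdgfrb), -0.09085 to 0.02108 (Rgs5), -0.2774 to 0.03981 (Myh11) and -0.08277 to 0.1512 (Abcc9).

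The replicate numbers did not pair the libraries. With a replicate block, 4 of the 10 genes were called for age in Sham mice (13.6% of all genes) and 6 for age in injured mice (18.1%), Acta2 being added at -0.27 (adjusted p = 0.0805, edgeR), and 0 in the other comparisons. Pools of few mice and 3 libraries a group limit what small changes could be seen.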

Other observations

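Across the 12 libraries, the genes whose levels were most alike to the mean of Acta2, Myh11, Tagln and Cnn1, of 13042 genes with at least 5 CPM on average, were Pgap3 (Pearson r = 0.928), Egfl8 (0.895), Myl9 (0.894), Thra (0.892) and Scrn2 (0.892). Most alike to the mean of the other 6 genes were Efna1 (0.958), Sh3bp4 (0.941), Ptgir (0.94), Ttc28 (0.936) and Flrt1 (0.924). These are descriptions over libraries that share depth and the differences between the 4 groups.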
